A study of Drosophila melanogaster with 6 samples.

Results

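Nuclear transport receptors and the factors of the Ran cycle were measured at the RNA level in S2 cells, an established, hemocyte-like Drosophila melanogaster line of embryonic origin. The group holds 8 genes chosen by name, out of 16451 listed: msk, Karybeta3, Tnpo, Fs(2)Ket, Pen, emb, Ran and RanGAP, and all 8 passed the low-count filter. The study has 6 poly(A) RNA libraries of this line, 3 from untreated control cells that had only medium added and 3 from cells kept for 30 min at 25 °C in 10 mM hydrogen peroxide (H2O2). Both groups are labelled wild type, and both grew in Schneider's medium with 10% serum, streptomycin and penicillin. No gene was deleted or depleted in any library. Library totals ran from 35404927 to 42043808 expected counts. Whether replicates are separate cultures is not stated, and the p-values therefore reflect only the variation among these libraries, part of which may be technical.

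Proteins and RNA pass the nuclear envelope through pores, carried by receptors of the importin beta family (karyopherins), which recognise a signal on their cargo. Direction comes from the small GTPase Ran: import receptors release cargo when they meet Ran bound to GTP in the nucleus, and export receptors bind cargo together with it. RanGAP switches Ran to its GDP form in the cytoplasm, and Rcc1 reloads it with GTP on chromatin. The title of the series names nuclear p38, a stress-activated kinase that must itself cross the pore, and msk (importin 7) is known in flies for carrying the activated MAP kinase of the ERK pathway into the nucleus.

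In the fit without pairing of libraries, none of the 8 genes passed the test after H2O2. Fs(2)Ket and Tnpo stood lowest against their controls, and Ran and RanGAP had nearly the same mean in both groups. Fs(2)Ket went from 234 ± 13.8 to 164 ± 12.5 CPM and Tnpo from 194 ± 9.78 to 142 ± 11.6 CPM (mean ± SD, n = 3 per group). CPM here is the count relative to the library total after TMM scaling. By the quasi-likelihood F test of edgeR, adjusted over all genes by Benjamini-Hochberg, 0 of the 8 were called at an adjusted p under 0.05, where 3.14% of all 8955 genes tested were called in either direction and 0.570% were called lower. At an unadjusted p under 0.05 there were 2 of the 8, Fs(2)Ket and Tnpo, where 14.0% of all genes were under it. DESeq2 called these same 2 lower, against 2.96% of its genes called lower.

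The same-numbered libraries of both groups deviated together, and with the replicate number as a block edgeR called 4 of the 8 lower (Fs(2)Ket, Tnpo, emb and msk) and 0 higher. In that fit 12.8% of all genes tested were called lower and 8.99% higher. The H2O2 libraries lay entirely below the controls in 2 of the 8 genes and entirely above them in 0, against 10.4% and 9.98% of all genes. Transcript length moved with these values. Across all genes of at least 5 CPM, the fold change fell with effective length, and when that trend was taken out of the blocked fit 1 of the 8, Fs(2)Ket, was called lower, against 1.50% of all genes lower and 6.24% higher.

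The bulk RNA cannot tell fewer cells of a kind from less RNA per cell. All 10 hemocyte markers listed averaged above 1 TPM (a share of all transcripts, scaled by length), and their summed level was 2120 to 2420 TPM in controls and 1740 to 1940 TPM after H2O2. Summed ovarian markers lay at 122 to 150 and 120 to 152 TPM, and those of neurons at 8.13 to 11 and 6.26 to 8.32 TPM. Of 6 ovarian markers 3 averaged above 1 TPM, with bam highest at 109 TPM. Of 5 neuron markers 2 did, with elav highest at 4.46 TPM. Mean TPM was lower after H2O2 in 3 neuron genes and higher in 2, among them para (0.22 ± 0.0173 to 0.35 ± 0.0436). Muscle markers summed to at most 0.53 TPM and fat body markers to at most 0.16 TPM, with the larval serum protein gene Lsp1alpha at 0 counts in all 6 libraries. The hemocyte sum did not overlap between groups. Mean TPM was lower after H2O2 in 8 of its 10 genes, most of all for Hml (500 ± 90.7 to 287 ± 25.7) and Col4a1 (346 ± 26.1 to 248 ± 28), whose RNAs are long, and higher in 2, srp (121 ± 10.6 and 124 ± 2.84) and He (363 ± 34.7 and 384 ± 56.5). The median gene was lower in TPM too, although a share cannot fall in all genes at once. The median log2 fold change on log2(TPM + 1) was −0.056 over all genes tested and −0.087 for genes of at least 5 CPM. Of the 10 genes, edgeR without the block called 0, against 3.14% of all genes tested. With the block it called Hml, Col4a1, vkg and eater lower, against 12.8% of all genes. With the length trend also removed, none of them was called, against 1.50% of all genes lower. The log2 fold changes were then −0.14 for Hml (edgeR adjusted p = 0.247) and −0.04 for Col4a1 (0.849). For vkg and eater they were 0.06 (0.784) and −0.09 (0.481). The part of the hemocyte sum in the results below was not tested.

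Levels of different genes were set side by side in TPM. Ran was the most abundant of the 8, with 782 ± 228 TPM in controls and 737 ± 232 TPM after H2O2, and ranked 140 among all genes by mean TPM. Next came Karybeta3 (303 ± 30.4 and 245 ± 47.7 TPM), Pen (263 ± 34.8 and 235 ± 58.2 TPM) and msk (244 ± 31 and 193 ± 36.6 TPM), whose ranges over the 6 libraries overlapped from each to the next. A gap followed: the lowest msk library, at 155 TPM, stood above the highest emb library, at 126 TPM. The lower levels were those of emb (107 ± 16.9 and 81.5 ± 14.4 TPM), RanGAP (67.2 ± 16.5 and 63.8 ± 18.7 TPM), Fs(2)Ket (54.4 ± 2.86 and 36.3 ± 4.52 TPM) and Tnpo (40.6 ± 1.53 and 27.9 ± 3.17 TPM). Neighbours in this order also overlapped in their ranges over libraries. Within single libraries the order was steadier, since each gene stood above the next in all 6 libraries, except that Karybeta3 stood above Pen in 5 of 6. The partners of classical import thus differed in level: RNA of Pen, an importin alpha, was several times that of Fs(2)Ket, the importin beta it works with.

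Import receptors that bind cargo directly come first. The gene msk (FBgn0026252, chromosome 3L, 8116179 to 8121579, plus strand, dm6) encodes importin 7, and its single listed transcript has 3979 nt. Control replicates 1, 2 and 3 had 932, 757 and 820 CPM, and H2O2 replicates 1, 2 and 3 had 823, 597 and 694 CPM. Each H2O2 library was below the control of the same number, while the groups overlapped, since H2O2 replicate 1 stood above control replicates 2 and 3. Its log2 fold change of −0.25 (SE 0.15, edgeR adjusted p = 0.598) kept its size under the block, where it was called (SE 0.07, adjusted p = 0.0278). Taking out the length trend besides left −0.06 (adjusted p = 0.617). The blocked call was kept without replicate 1 and lost without replicate 2 or 3, at similar log2 fold changes of −0.29, −0.22 and −0.28. The edgeR adjusted p was 0.0468, 0.16 and 0.0568 without replicates 1, 2 and 3.

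Karybeta3 (FBgn0087013, chromosome 3R, 4649176 to 4654624, plus strand) encodes the fly importin 5. Control replicates 1 to 3 had 1168, 996 and 1131 CPM and H2O2 replicates 1095, 787 and 942 CPM, so that H2O2 was lower in every same-numbered pair and the groups overlapped. With 1100 ± 90.4 CPM in controls, it gave the most reads per library of the 8. Its log2 fold change of −0.22 (SE 0.15, edgeR adjusted p = 0.64) missed the threshold with the block too (adjusted p = 0.0506), and passed it with the block when replicate 1 was left out (−0.3, adjusted p = 0.0427). The blocked value without the length trend (length-corrected) was −0.02.

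Transportin, the product of Tnpo (FBgn0024921, chromosome 3L, 6193480 to 6200385, plus strand), carries RNA-binding proteins into the nucleus. Tnpo had the longest RNA of the 8, at 5461 nt on average, and 4 listed transcripts. Its controls had 188, 206 and 190 CPM, and the H2O2 libraries had 133, 138 and 155 CPM. All 3 H2O2 libraries lay below all 3 controls. With −0.45 on the log2 scale (SE 0.11, edgeR adjusted p = 0.0842), it missed the threshold, and it was called lower with the block (adjusted p = 0.00162) and by DESeq2 (adjusted p = 0.0045). The blocked call held without each replicate pair in turn (adjusted p from 0.00298 to 0.0313). The length-corrected blocked value was −0.16 and was not called (adjusted p = 0.221).

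Classical import uses an adaptor and a carrier, importin alpha and importin beta. The carrier gene Fs(2)Ket (FBgn0262743, chromosome 2L, 20734609 to 20750941, plus strand) had 224, 228 and 249 CPM in controls and 170, 149 and 171 CPM after H2O2. The groups did not overlap, and every pair was lower, by −0.39, −0.61 and −0.54 on the log2 scale in replicates 1, 2 and 3. A log2 fold change of −0.52 (SE 0.11) had an edgeR adjusted p of 0.0597. It was called lower with the block (adjusted p = 0.000556), in all 3 fits that left out a replicate pair from the block (0.0015 to 0.0152), and by DESeq2 (0.000636). The length-corrected blocked value was −0.26 (SE 0.05) and was also called (adjusted p = 0.0236). The abundance-weighted mean transcript length, which moves when isoform use moves, was 4715 to 4989 nt over the libraries, with both ends in H2O2 libraries. The end of Fs(2)Ket overlaps Amacr on the opposite strand by a few bases, and Amacr had 11 ± 3.87 and 11.8 ± 3.48 CPM.

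The adaptor gene Pen (FBgn0287720, chromosome 2L, 10056900 to 10060095, plus strand) encodes an importin alpha. It had 640, 523 and 542 CPM in controls and 680, 455 and 481 CPM after H2O2. Replicate 1 was the highest library in both groups and was the 1 pair in which H2O2 was above control. Its log2 fold change came to −0.08 (SE 0.18, edgeR adjusted p = 0.938) and −0.09 with the block (SE 0.08, adjusted p = 0.42), so a difference was not detectable beside that spread.

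The export receptor of the group is emb (FBgn0020497, chromosome 2L, 8403573 to 8408853, plus strand), the fly CRM1 or exportin 1, which carries proteins with leucine-rich export signals. Controls had 481, 404 and 369 CPM and H2O2 libraries 399, 304 and 311 CPM. H2O2 was lower in each pair, by −0.27, −0.41 and −0.24 on the log2 scale, and the groups overlapped through H2O2 replicate 1. Its log2 fold change was −0.31 (SE 0.16, edgeR adjusted p = 0.491), called with the block (SE 0.07, adjusted p = 0.0107), but not with the block when replicate 2 was left out (−0.26, adjusted p = 0.0847). The length-corrected blocked value was −0.08 (adjusted p = 0.518).

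Ran itself (FBgn0020255, chromosome X, 11144852 to 11148716, minus strand) had the shortest RNA of the 8, at 1194 nt. Its controls had 918, 569 and 618 CPM and its H2O2 libraries 933, 581 and 596 CPM. Both replicate 1 libraries stood far above the other 4, while each H2O2 library was close to the control of its own number, at 0.02, 0.03 and −0.05 on the log2 scale. On the log2 scale, the fold change was 0.00 (SE 0.25, edgeR adjusted p = 0.999), with an SE of 0.07 under the block (adjusted p = 0.998). The length-corrected blocked value was −0.09 (SE 0.05, adjusted p = 0.405).

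RanGAP (FBgn0003346, chromosome 2L, 19441959 to 19447317, plus strand) had 138, 91 and 101 CPM in controls and 147, 91.2 and 96.4 CPM after H2O2. As for Ran, replicate 1 was the highest library in both groups, and the groups overlapped throughout. Its log2 fold change was 0.02 (SE 0.23, edgeR adjusted p = 0.988) and 0.01 with the block (SE 0.07, adjusted p = 0.959). Hs2st and CG10237 overlap RanGAP on the opposite strand, with 27.4 ± 1.16 and 3.77 ± 0.253 CPM in controls. Libraries were made with a stranded kit, but the sources do not give the strand setting of the counting, so reads from the overlaps may not be separated.

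**Figure D1:**
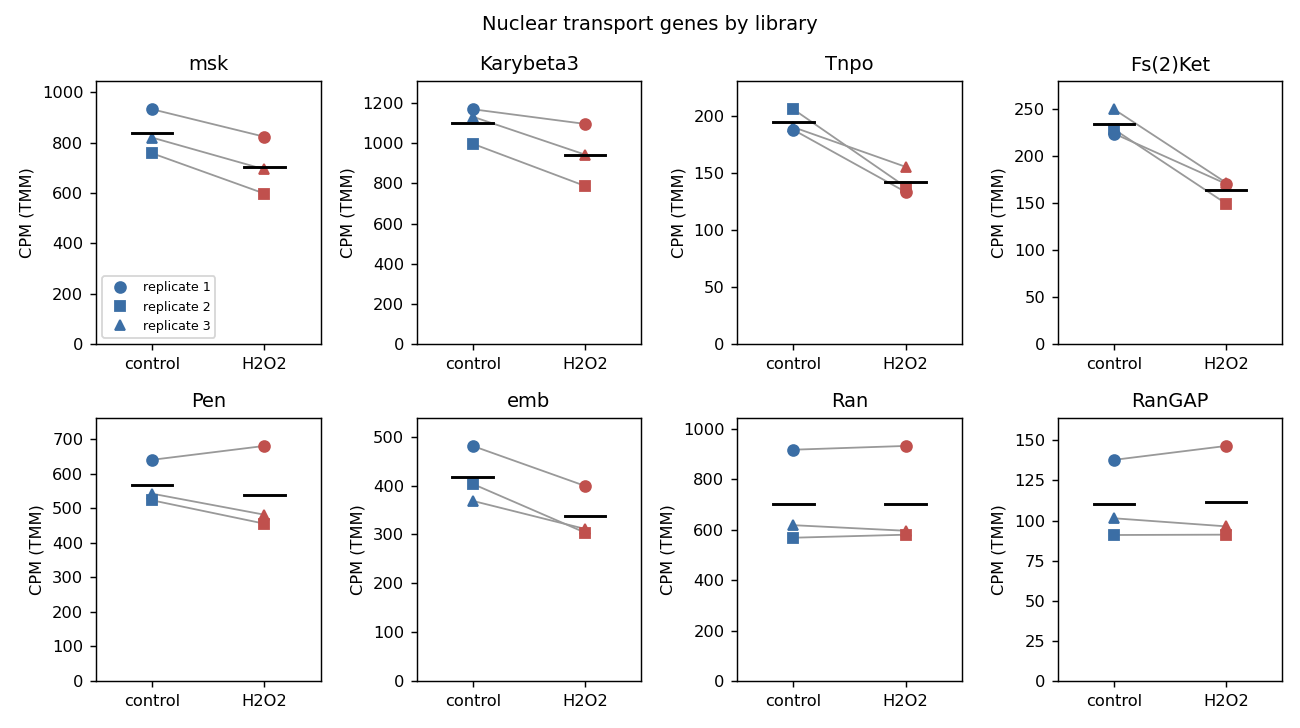
TMM-normalized CPM (vertical axes, each from 0) of the 8 genes in every library. Circles, squares and triangles are replicates 1, 2 and 3, blue for control and red for H2O2, with a line between libraries of the same number and a black bar at the group mean; Fs(2)Ket and Tnpo are the 2 genes whose groups do not overlap, and replicate 1 is highest in both groups for msk, Karybeta3, Pen, emb, Ran and RanGAP.

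**Figure D2:**
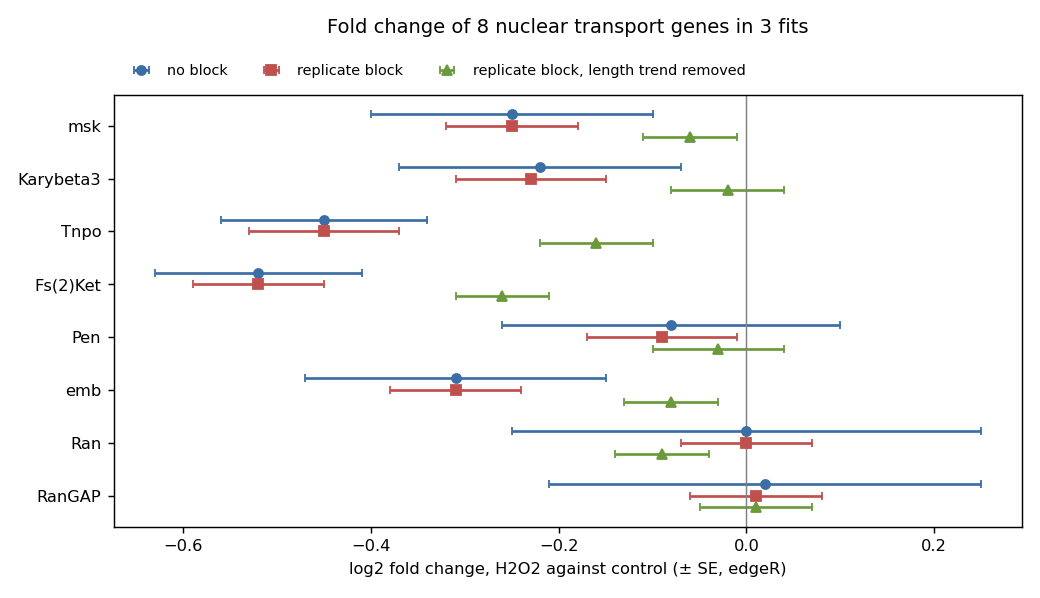
The log2 fold change of each gene, H2O2 against control (horizontal axis), with its SE, in edgeR without the block (blue), with the replicate block (red) and after length correction of the blocked fit (green). The block narrows the SE and leaves the values in place, and removal of the length trend moves the 5 longest genes toward 0, with Fs(2)Ket at −0.26.

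Fold changes were lower for longer RNAs, with exchanges between neighbours in length. The length trend fitted over all genes, taken at each gene's own length, came to −0.30 for Tnpo, −0.26 for Fs(2)Ket, −0.23 for emb, −0.21 for Karybeta3 and −0.19 for msk. At the lengths of Pen, RanGAP and Ran it came to −0.06, 0.00 and 0.09. With the trend removed and no block, Fs(2)Ket had −0.26 and Tnpo −0.16, and the other 6 lay between −0.09 for Ran and 0.02 for RanGAP, with none called. With the block, edgeR called 3 of the 4 genes with RNA of at least 4000 nt lower, and 1 of the 4 shorter ones. That shorter gene was msk, whose 3979 nt lie just under the cut. Of all tested genes, it called 57% of the 1332 genes of at least 4000 nt lower and 5.02% of the 7623 shorter ones. The length cut was chosen after the values were seen, and the part of RNA length in the lower values of the carriers was not tested beyond the removal of the trend.

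**Figure D3:**
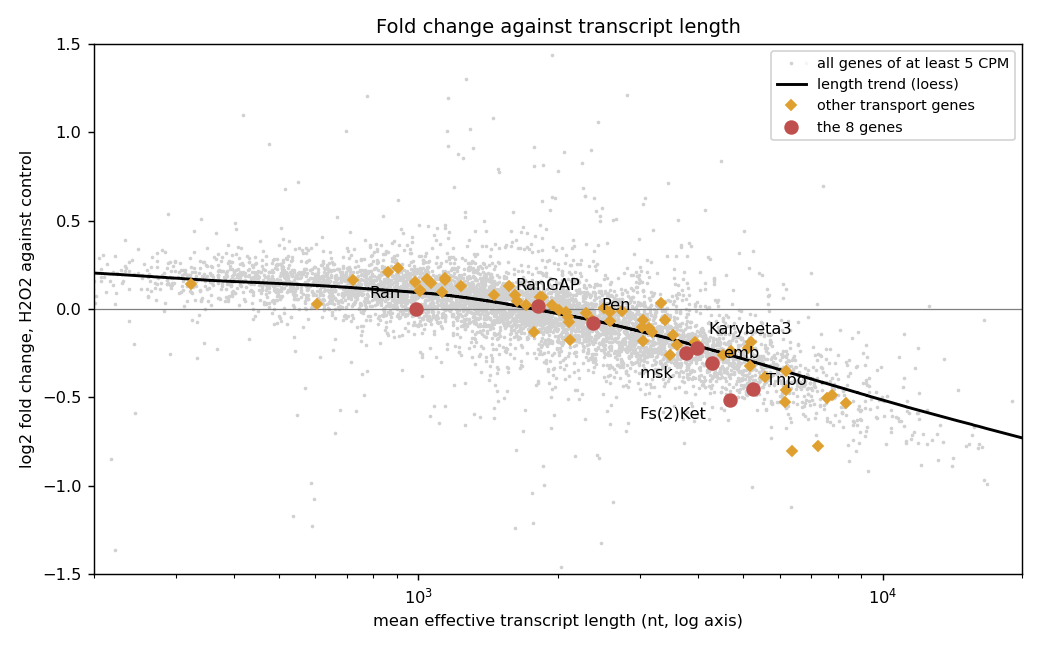
The log2 fold change without the block (vertical axis) against mean effective transcript length in nt (horizontal log axis) for all genes of at least 5 CPM (grey), the 8 genes (red), other transport genes (orange diamonds) and the fitted trend (black line). The 5 longest genes lie along or below the falling line, which is −0.30 at the length of Tnpo, and Fs(2)Ket lies farthest below it among the 8.

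The remaining transport machinery was described by 5 lists of 64 genes in all, of which 61 were tested. Without the block edgeR called 0 of them. An unadjusted p under 0.05 was found for 9 of the 61, a share near the 14.0% of all genes. DESeq2 called 6 lower and 0 higher, against 2.96% and 3.81% of all its genes. Over the 61 the log2 fold change had a median of −0.04, with 36 negative and 25 positive values, against −0.23 for the 8 genes and 0.025 for all genes tested. Medians by list were −0.08 for other importins, −0.19 for other exportins, −0.01 for other Ran factors, −0.06 for pore genes and 0.08 for mRNA export genes. With the block, 15 of the 61 were called lower and 1 higher, against 12.8% and 8.99% of all genes. Length correction on top of the block left 2 lower and 0 higher, against 1.50% and 6.24% of all genes. RNA lengths of the 15 lower genes ran from 3691 to 8552 nt, and 13 of the 15 genes of at least 4000 nt in these lists were among them, against 2 of the 46 shorter ones.

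Of 10 other importins tested, the block gave 1 lower, Arts, an importin beta family gene (227 ± 35 to 189 ± 39 CPM, log2 fold change −0.27, edgeR adjusted p = 0.0187). It gave 1 higher, CG8219, a gene at a low level (1.59 ± 0.577 and 2.5 ± 0.254 CPM). CG8219 starts 0.088 kb behind Tnpo on the same strand, so its call is counted again among the downstream genes below. Kap-alpha3, a second importin alpha and the most abundant gene of the list, had 384 ± 27 and 373 ± 29 CPM (−0.04), close to the value of Pen. The remaining genes of the list had blocked adjusted p-values between 0.0722 for Ipo9 (importin 9, −0.19) and 0.758 for Tnpo-SR (a transportin of SR splicing proteins, 0.04). The germline importin alpha gene alphaKap4 had 0 counts in all libraries. Among 4 other exportins all values were negative, and the block gave 2 lower. These were Ranbp21, the fly exportin 5 (111 ± 9.63 to 89.2 ± 8.67 CPM, −0.32, adjusted p = 0.012), and Ranbp16, related to exportin 7 (110 ± 6.97 to 95.3 ± 9.37 CPM, −0.21, adjusted p = 0.048). Cse1, which returns importin alpha to the cytoplasm, had 309 ± 31.3 and 289 ± 30.6 CPM (−0.10). Neither exportin kept its call with the length trend removed (−0.03 for both).

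Of 5 other Ran factors tested, Nup358, the large pore filament protein that binds Ran, was the 1 called lower with the block. It went from 762 ± 76.8 to 527 ± 104 CPM (−0.54, edgeR adjusted p = 0.000629), and had a length-corrected blocked value of −0.09 (adjusted p = 0.438). The exchange factor gene Rcc1 had 221 ± 60.1 and 220 ± 72.9 CPM, and Ntf-2, which brings Ran back into the nucleus, 269 ± 74.5 and 274 ± 76.6 CPM. Without the block, their log2 fold changes were −0.01 and 0.03, near those of Ran and RanGAP.

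In the nuclear pore list, 10 of 27 genes were called lower with the block, against 12.8% of all genes, and 0 higher. DESeq2 called 4 lower, against 2.96% of its genes. Elys, which starts pore assembly on chromatin, had the largest decrease, from 131 ± 5.51 to 75.5 ± 17.8 CPM (−0.82, edgeR with the block, adjusted p = 0.000812). It was the 1 pore gene called after length correction (−0.46, adjusted p = 0.0142). With the block, Mgtor, the basket filament protein also called Megator, fell from 435 ± 5.28 to 307 ± 32.4 CPM (−0.51), and the basket gene Nup153 from 540 ± 11 to 385 ± 50.7 CPM (−0.49). Lower values were also called with the block for Gp210, a membrane nucleoporin (996 ± 145 to 692 ± 119 CPM, −0.53), Nup98-96 (−0.46) and the inner ring gene Nup188 (−0.40). Sec13, a short and abundant gene of the outer ring, had 319 ± 59 and 357 ± 87.3 CPM (0.15 with the block) and was not called.

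Among 15 mRNA export genes tested, 1 was called lower with the block, Nxf3, which in flies exports piRNA precursors. It went from 57.6 ± 6.62 to 33.7 ± 7.52 CPM (−0.79, edgeR adjusted p = 8.19e-05), and was also called after length correction (−0.38, adjusted p = 0.00751). The helicase gene Hel25E had 349 ± 38.4 and 369 ± 58.4 CPM (0.07 with the block). Nxt1, a cofactor of the bulk export receptor, had 58.7 ± 20.7 and 64.6 ± 21.6 CPM (0.14 with the block). These genes were the most abundant per length and were not called.

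**Figure D4:**
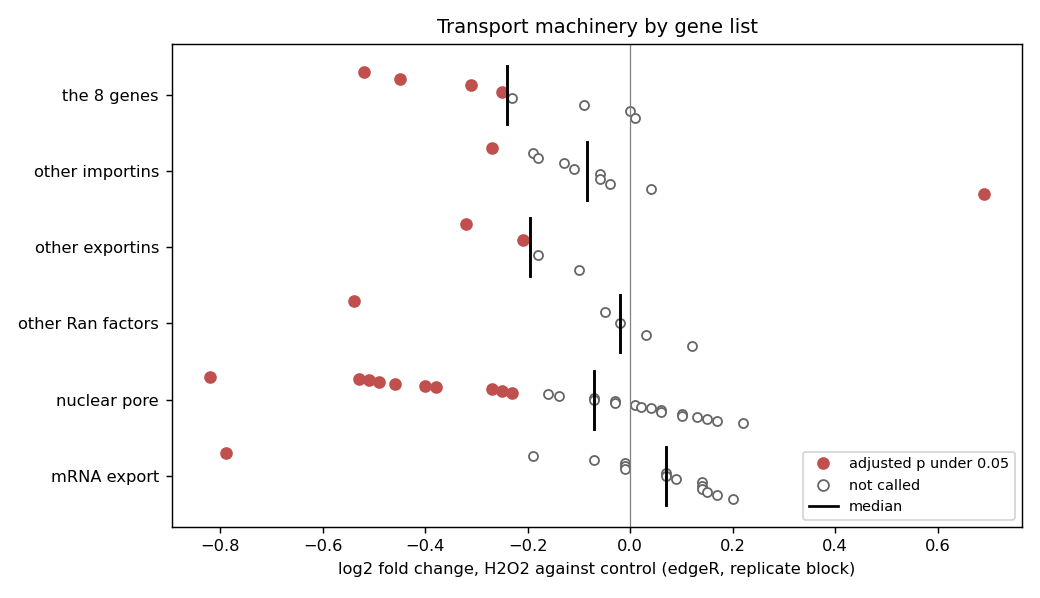
The log2 fold change of each tested gene in edgeR with the replicate block (horizontal axis), by gene list, with filled red points for an adjusted p under 0.05 and a black line at the list's median. Called genes lie on the lower side in every list, apart from CG8219 among the other importins, with Elys at −0.82 and Nxf3 at −0.79 lowest.

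Over the 6 libraries, the genes whose profile was most like that of msk were Hsc70-5, a mitochondrial Hsp70 chaperone gene, a gene with no symbol in the reference, the helicase gene Blm, PIG-G and psidin. Likeness was the root mean square difference of log2 CPM after centring each gene on its own mean, and the 5 had 0.0293 to 0.0371 among 6883 genes of at least 5 CPM. Karybeta3 was the nearest other member, at rank 13 (0.0436), while Tnpo stood at rank 2799. For Ran the nearest were Ntf-2 (0.0265), mms4, Ost48, ATPsynbeta and CG4278, and RanGAP held rank 8 (0.0406). The profiles share libraries, depth and the length trend, so the ranks are a description.

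Genes that start close downstream of the 8 on the same strand were read as a further measurement. Within 5 kb there were 8 such genes, 7 of them tested, and 0 were called by edgeR without the block, where 2 had an unadjusted p under 0.05, against 14.0% of all genes. With the block 2 were called higher and 1 lower, against 8.99% and 12.8% of all genes. DESeq2 called 1 of them higher (CG15199), against 3.81% of all its genes, and 1 lower (smash), against 2.96%. Downstream of Ran by 3.02 kb, CG15199 had 13, 10 and 6 counts in controls and 26, 36 and 28 counts after H2O2. Its groups did not overlap, and it was called higher with the block (log2 fold change 1.56, adjusted p = 0.006) and after length correction too (1.40, adjusted p = 0.035). CG8219 begins 0.088 kb after the end of Tnpo and had 80, 61 and 36 counts in controls and 100, 98 and 93 counts after H2O2. It was called higher with the block (0.69, adjusted p = 0.0372) and not after length correction (0.78, adjusted p = 0.0691). Behind Karybeta3, smash, a gene with RNA of 5547 nt at 4.96 kb, was called lower with the block (−0.49, edgeR adjusted p = 0.00105). The blocked value of spartin, at 0.176 kb, was 0.17. With the block, Ns4 behind Fs(2)Ket had 0.12, ldbr behind msk 0.05 and Spn31A behind Pen −0.21. None of these was called with or without the block. The untested gene, ssp7, lies 4.59 kb behind Ran and had between 1 and 7 counts per library.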

How the data were processed

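Poly(A) RNA of 6 S2 libraries was sequenced, and the authors deposited 1 RSEM gene table per library. STAR 2.4.0j, RSEM 1.2.21 and build dm6 are named, per the submitters' processing notes, and the gene annotation is not given there. The deposited tables give, per the file headers, an expected count per gene, with reads shared between genes divided by probability, a TPM value per effective length, and a posterior SD of the count, which was at most 0.28 for the 8 genes. Expected counts were rounded. The deposited TPM values were used for levels between genes and in alternatives.

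In edgeR 4.0.16 (R 4.3.3), filterByExpr left 8955 genes. The fit scaled libraries by TMM and ran a robust, two-sided quasi-likelihood F test with group as the only term. Benjamini-Hochberg adjustment covered all genes, and genes under 0.05 were called. The SE came from the log2 fold change over the root of F. Alternatives used DESeq2 1.42.0 and limma 3.58.1. The length trend is a loess (span 0.5) of log2 CPM on log2 effective length in each library, over genes of at least 5 CPM, used as an offset. Some of the fits, not all, were also run on simulated counts. The outcome of those runs is not given here, and no result above rests on it.

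The labels give the groups the same replicate numbers and nothing more on pairing. Deviations from the group means correlated at 0.717, 0.518 and 0.601 across genes for numbers 1, 2 and 3, so the numbers were read as pairing the libraries. No 2 libraries were duplicates (chi-square per degree of freedom at least 45.5).

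The 8 genes, the lists and the rules were chosen with earlier results of these data known. Named list genes were those called by edgeR with or without the block, at most 6 per list by smallest p, and the 2 most abundant; Ipo9, Tnpo-SR and alphaKap4 were added after their values were seen. Symbols and positions are from Ensembl release 115, and 16419 of 16451 genes matched a symbol. A planned search of promoters for motifs was not run, because no genome sequence was used here.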

Additional observations from a re-analysis of the deposited data

How the results depend on the processing

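Without the block, edgeR called 281 genes and 0 of the 8. The replicate block gave 1947 and 4, DESeq2 744 and 2, a filter of 50 counts in 3 libraries 76 and 0, and the block with the length trend removed 693 and 1. Leaving out 1 library gave 0 to 154 genes and 0 of the 8 throughout. With the block, leaving out replicate 1, 2 or 3 (added after seeing the data) gave 1536, 768 and 1652 genes and 5, 2 and 3 of the 8. The median of the 8 was −0.23, −0.07 with the length trend removed with or without the block, and −0.36 to −0.13 without 1 library.

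In the edgeR fit with group as the only term and all 6 libraries, after filterByExpr and TMM, the 5 wider lists had 0 calls. The pairing of libraries by the block gave 2 importins, 2 exportins, 1 Ran factor, 10 pore genes and 1 mRNA export gene. DESeq2 gave 1 Ran factor, 4 pore genes and 1 mRNA export gene. No low-count filter and limma on log2(TPM + 0.1) each gave 1 pore gene, and the block with the length trend removed gave 1 pore gene and 1 mRNA export gene. Leaving out 1 library gave 0 to 1 in the pore and mRNA export lists and 0 in the others. The block without replicate 1, 2 or 3 gave 8, 6 and 7 pore genes, 2, 0 and 0 importins, 1, 0 and 0 exportins, and 1 Ran factor and 1 mRNA export gene each time.

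Signs turned for 3 genes with values near 0. Ran had −0.01 by DESeq2 and without the low-count filter, 0 with RLE size factors, −0.09 by limma on either TPM scale and with the length trend removed (with or without the block), −0.01 and −0.02 with the block without replicates 1 and 2, and −0.26 to 0.24 without 1 library. RanGAP had −0.09 by limma on either TPM scale, −0.04 with the block without replicate 1, and −0.23 to 0.21 without 1 library. Pen had −0.28 to 0.02 without 1 library. The cause was not tested. Among genes downstream edgeR without the block called 0 at 2, 5 and 10 kb. Within 5 kb, in fits added after seeing the data, the block called 3, DESeq2 2, limma on log2(TPM + 1) 1, the block with the length trend removed 1, and the block without replicate 1, 2 or 3 called 3, 1 and 2. Among the 8, the block changed the calls of Fs(2)Ket, Tnpo, emb and msk, and of no other gene.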

Other observations

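Ratios between the 8 genes within a library do not depend on scaling, and were formed after the values had been seen. Pen exceeded Fs(2)Ket in TPM by 5.69, 4.55 and 4.32 times in control replicates 1 to 3, and by 7.6, 6.04 and 5.66 times in the H2O2 replicates. Within same-numbered pairs the ratio was 1.34, 1.33 and 1.31 times higher after H2O2, while the groups overlapped. An exact sign-flip test over the 3 pairs gave a two-sided p of 0.25, the smallest it can give, and an exact permutation test that ignored the pairs gave 0.2, where 0.1 is the smallest possible. Neither test can reach 0.05 at this number of libraries. RNA of Ran relative to the summed RNA of the 6 carriers and adaptors was 0.763 ± 0.139 in controls and 0.89 ± 0.121 after H2O2 in TPM (n = 3, exact permutation p = 0.3). It was 1.11, 1.28 and 1.14 times higher within pairs 1, 2 and 3 (exact sign-flip p = 0.25). The ratio of Ran to RanGAP varied little, at 11.6 ± 0.54 and 11.5 ± 0.286 (n = 3, exact permutation p = 1), although both genes varied widely over the libraries. Of the summed carrier RNA, msk held 24 ± 0.52% in controls and 23.6 ± 0.461% after H2O2, and Fs(2)Ket held 5.42 ± 0.611% and 4.48 ± 0.387%. RNA length differs between the genes of each ratio. The length trend came to 0.09 at Ran, −0.06 at Pen and −0.19 (msk) to −0.30 (Tnpo) at the other carriers. The part of RNA length in the ratios was not tested.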
